A study of Mus musculus with 52 samples.

Results

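The comparison covers 24 of the 52 libraries of the series: 8 libraries of 2 non-ciliated mutant clones against 16 libraries of 4 non-ciliated control clones, with 4 replicate libraries per clone. All 24 were chosen by their labelled clone names. The cells were IMCD3, a mouse line from the inner medullary collecting duct of the kidney, in its Cilia-APEX form, which carries a peroxidase directed to the cilium. They were grown with 10% serum, under which few cells build a primary cilium, and messenger RNA was counted per gene. Clone BE_W34 is homozygous for a base-edited Wdr34 and clone BE_W60 for a base-edited Wdr60. The study's methods place p.Arg183Trp in Wdr34 and p.Ala911Val in Wdr60, the latter beside a silent change on 1 allele. The control clones are AB_Co, BE_Co1, BE_Co2 and BE_Co3. Per the study's methods, controls received the base editor BE4-Gam and a guide vector without a target sequence, but the methods do not name these clones. By those methods mutants and controls were all grown from single sorted cells. Each genotype is 1 clone here, so an effect of an edit and a property of its clone cannot be told apart. In a bulk library fewer cells of a kind and less RNA per cell cannot be told apart either. Library totals ran from 15617398 to 21085697 counts.

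Wdr34 and Wdr60 are the intermediate chains of dynein-2, the motor that carries intraflagellar transport trains from the ciliary tip back to the cell body. Dynein-2 is best known for its work inside the cilium, where its loss disturbs the return of receptors and of Hedgehog components. Cells in serum are cycling and mostly lack a cilium, so a difference between genotypes in this state asks what the edits accompany when the cilium is absent.

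The guides are shown because they place the edit of each clone. They run 5′ to 3′ with the target cytosine and the adjacent PAM in capitals, and the target is base 5 of 19.
Wdr60 guide: cctgCagtgttcctggtccAGG
Wdr34 guide: tggtCggtgagtgagagctTGG
On GRCm38 the Wdr60 site is chr12:116211807-116211828 on the minus strand, wholly within exon 21 of 22, and the target cytosine is coding base 2732 in codon 911 (gca, read gta after the edit). The Wdr34 site is chr2:30034747-30034768 on the minus strand. Its first 6 bases are the end of exon 3 of 9 and the rest would run into the intron, which was not checked against the genome. Its target is coding base 547 in codon 183 (cgg, read tgg after the edit).

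The edited genes themselves were still expressed, and a missense edit need not alter their level. In CPM (counts scaled to a common library size by the trimmed mean of M values), Wdr34 was at 27.4, 27.5, 24.8 and 29.1 CPM in the BE_W34 libraries and at 17.7, 38.4, 35.8 and 33.3 CPM in the BE_W60 libraries. The controls spanned 19.8 to 40.4 CPM with a median of 25 CPM. Wdr60 was at 24.9, 33, 30.3 and 30.9 CPM in BE_W60 and at 25.4, 25.3, 26.2 and 25 CPM in BE_W34, against 18.1 to 26.6 CPM in controls. Neither gene was called: the log2 difference was 0.18 ± 0.12 (SE) for Wdr34 with adjusted p = 0.329 and 0.23 ± 0.08 for Wdr60 with adjusted p = 0.0394, both by the quasi-likelihood test of edgeR. These levels do not test the labels, since a substitution leaves the transcript countable.

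Several libraries stood apart before any comparison. The epithelial markers, all 12 of which were measured, summed to 1160 to 1197 CPM in the BE_Co2 libraries and to 3837 to 6571 CPM in every other library. Within that list, Cdh1, the epithelial cadherin, averaged 4.14 CPM in BE_Co2 against 235 to 382 CPM in the other clones, and Epcam averaged 2.8 CPM against 175 to 378 CPM. Replicate 1 of AB_Co and replicate 1 of BE_W60 also differed from their own clones: 815 and 549 genes were over 2-fold away from the mean of the other 3 libraries, against 56 to 115 genes for each of the other libraries. Collecting duct principal cell markers were mostly silent, with 5 of 14 tested and Aqp2 at 0 counts in 23 of 24 libraries, and no marker of intercalated cells or of the thick ascending limb passed the filter on low counts. Markers of other cells were scarce: 1 of 10 fibroblast, 2 of 8 endothelial and 4 of 9 immune markers were tested, with none called by edgeR. Of 10 proximal tubule markers 3 were tested and Lrp2 and Aqp1 were called lower, and of 7 podocyte markers 3 were tested and Synpo was called lower.

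More genes were called lower than higher in the mutants. Of 12012 genes tested, 309 were called lower, which is 2.57%, and 59 higher, which is 0.491%, or 3.06% in all; a call is an adjusted p under 0.05 with at least a 2-fold difference. At an unadjusted p under 0.05 there were 1900 lower and 1737 higher genes. DESeq2 called 513 lower (3.67%) and 106 higher (0.758%). A gene was counted as shared by both mutant clones when both clone means lay beyond all 4 control clone means. That held for 134 of the 309 lower genes and 35 of the 59 higher genes, against 5.93% of all tested genes below and 6.92% above. Shared in this sense rests on clone means and does not mean that a gene was called in each clone on its own. Against the same controls, BE_W34 alone had 243 lower and 34 higher genes of 12355, which are 1.97% and 0.275%, and BE_W60 alone had 300 and 122 of 12371, which are 2.43% and 0.986%. These 2 comparisons share all their controls, so their overlap is a description only. Of the 309 lower and 59 higher genes, 80 and 2 were called in both of them, and 87 and 13 in neither. Among the 309 lower genes the highest control was BE_Co2 for 193, whereas BE_Co2 was the highest control for 32.7% of all tested genes. Without BE_Co2, 243 genes were called lower and 51 higher; 180 of the 309 and 41 of the 59 kept their call. Without replicate 1 of AB_Co and of BE_W60, 336 and 76 were called, and 299 and 53 kept their call. Other omissions moved the counts further: leaving out replicate 2, 3 or 4 of every clone gave 143 to 157 lower and 17 to 18 higher genes, and leaving out AB_Co gave 368 and 159. With fewer control clones the condition for shared is easier to meet. Without AB_Co 251 of the 368 and 112 of the 159 met it, beside 13% of all tested genes below and 12% above.

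Libraries of a clone are not independent animals or cultures of a genotype, and their p-values measure the spread between these libraries. With the clone entered as a block (voomLmFit of edgeR, within-clone correlation 0.714), 9 genes were called, all of them lower, which is 0.0749% of those tested, while 364 genes (3.03%) were lower and 498 (4.15%) higher at an unadjusted p under 0.05. Summing the libraries of each clone gave 0 calls by edgeR, with 582 of 13406 genes at an unadjusted p under 0.05. An exact two-sided permutation test over the 6 clone means has 15 splits and cannot go below p = 0.0667.

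The 9 genes that were called with the clone as a block cover a membrane channel, adhesion and matrix proteins, a potassium channel and enzymes of retinoid and steroid handling. Panx1, which forms large-pore channels for ATP release, was at 0 CPM in all 4 BE_W34 libraries and at 0.184, 0.22, 0.172 and 0.306 CPM in BE_W60. The controls ran from 3.11 to 6.19 CPM with a median of 5.17 CPM. No mutant library came near a control, and the log2 difference was -5.41 ± 0.42 (edgeR adjusted p = 9.01e-09; 0.000663 with the clone block). Lrfn1, a synaptic adhesion protein with leucine-rich repeats, had 1 count in all 8 mutant libraries together against 291 counts in the 16 control libraries. The ratio of control to mutant level was 133, with a 95% counting interval of 23.6 to 5250, and the adjusted p with the clone block was 0.013. Adgrg1, an adhesion G-protein-coupled receptor, was well expressed throughout: 101, 89.3, 101 and 97.7 CPM in BE_W34, 118, 148, 117 and 122 CPM in BE_W60, and 209 to 295 CPM in controls, with a median of 263 CPM. Its log2 difference was small but tight at -1.21 ± 0.09 (edgeR adjusted p = 8.95e-09; 2.78e-05 with the block).

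Dhrs3 reduces retinaldehyde to retinol and so limits retinoic acid. It was at 8.55, 5.77, 8.47 and 7.63 CPM in BE_W34 and at 7.11, 10.1, 6.47 and 7.58 CPM in BE_W60, against 25.3 to 82.5 CPM in controls. Both mutant clones thus sat at one level, and the log2 difference was -2.58 ± 0.28, or -2.18 without BE_Co2. Kcnj16, an inward-rectifier potassium channel subunit of distal nephron epithelia, was at 2.71 to 3.57 CPM in BE_W34, at 0.368 to 1.32 CPM in BE_W60 and at 7.13 to 18.8 CPM in controls. Mest, an imprinted gene of the hydrolase fold, was at 1.83 to 4 CPM, 0.661 to 2.02 CPM and 7.86 to 21 CPM in the same order. The control libraries of both genes lay above every mutant library. Thbs3, a matricellular thrombospondin, averaged 13.8 CPM in BE_W34, 11.7 CPM in BE_W60 and 22.4 to 33.2 CPM in the control clones. Tspan8, a tetraspanin of epithelial membranes, averaged 16.6 and 26.1 CPM in the mutant clones and 37 to 75 CPM in the control clones. Srd5a1, the steroid 5-alpha-reductase, was the closest to its controls: 46.4 and 30.2 CPM in the mutant clones and 49.7 CPM in AB_Co, the lowest control.

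**Figure D1:**
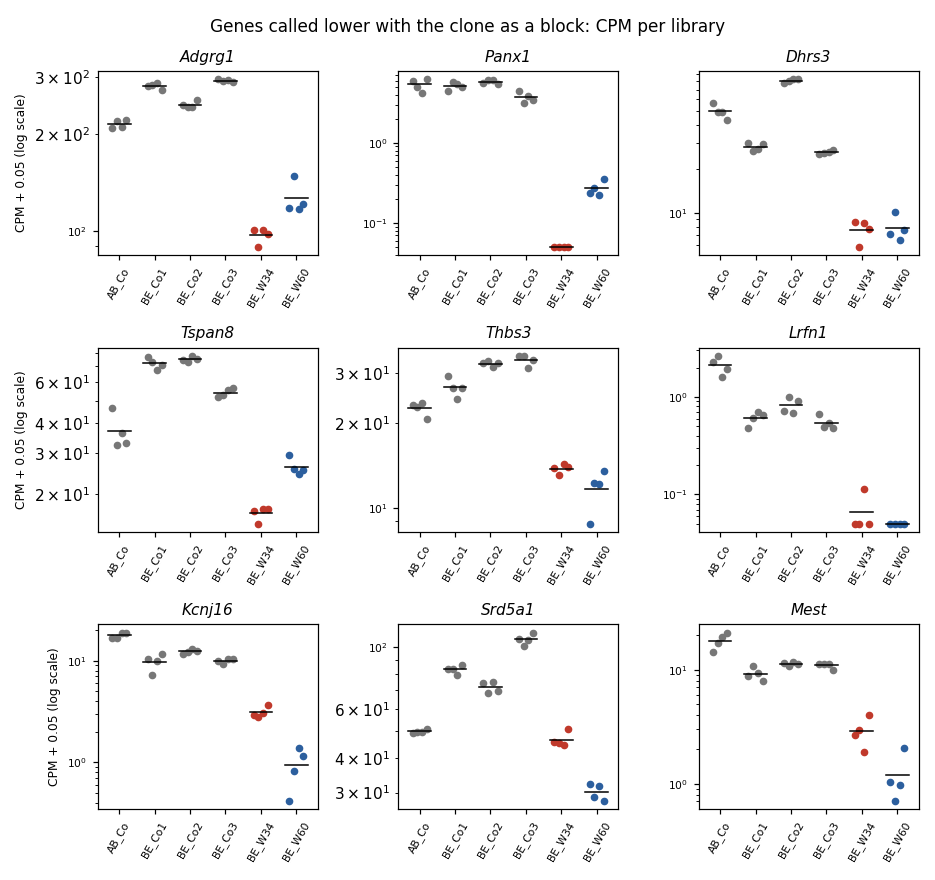
CPM per library, with 0.05 added, on a log axis for the 9 genes called with the clone as a block; each point is 1 library, bars are clone means, grey marks the 4 control clones, red BE_W34 and blue BE_W60. For 8 of the 9 genes every mutant library lies below every control library; Srd5a1 is the exception, where 1 BE_W34 library at 50.5 CPM overlaps AB_Co.

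Ranked by the gap between the nearest mutant and control clone means, other genes were all but absent from both mutant clones. Pitx1, a homeodomain factor of hindlimb and pituitary development, had 0 counts in all 8 mutant libraries and 1317 counts in the controls, where it ran from 0.3 CPM to 19.1 CPM. Against a floor of 3 counts over the mutant libraries it was at least 200-fold lower. Plagl1, an imprinted zinc finger factor, had 7 counts in the mutants and 1468 in the controls, at 0.778 to 10.1 CPM. Sytl2, which tethers Rab27 vesicles to the plasma membrane, was at 0.182 to 0.316 CPM in BE_W34, at 0 CPM in BE_W60 and at 1.24 to 64.9 CPM in controls. The controls of these genes themselves differed manyfold, with Sytl2 at 1.98 CPM in AB_Co and 59.9 CPM in BE_Co2. Ttc38 showed the opposite: its 4 control clones lay between 2.63 and 4.42 CPM and the mutant clones at 0.445 and 0.29 CPM (log2 difference -3.17 ± 0.26, edgeR adjusted p = 1.6e-08). Ptchd4, a Patched-related membrane protein, had 5 mutant counts and 0.292 to 11.1 CPM in controls. Ankrd33b averaged 0.135 and 0.0138 CPM in the mutant clones and 0.675 to 6.26 CPM in the control clones. Of the 309 lower genes, 39 had all 8 mutant libraries below all 16 controls, which is 0.325% of all tested genes.

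Imprinted genes, which are expressed from 1 parental copy, gave several calls, each of them shared by both clones. Of 28 tested, 4 were called lower (Plagl1, Mest, Peg3 and H19) and 1 higher (Asb4), or 14.3% and 3.57% beside 2.57% and 0.491% of all tested genes, and all 5 separated the mutant from the control clones. With the clone as a block 1 of the 28, Mest, was called lower and 0 higher. The list's median log2 difference was -0.11 beside 0.00 for all tested genes. At an unadjusted edgeR p under 0.05, 9 members were lower and 2 higher. Both mutant clone means lay below all controls for 6 members, or 21.4% beside 5.93% of all tested genes. Peg3, a zinc finger factor expressed from the paternal copy, was at 131 to 144 CPM in BE_W34 and at 97.6 to 134 CPM in BE_W60. Its control libraries ran from 63 to 741 CPM with a median of 426 CPM, and replicate 1 of AB_Co lay below the mutants at 63 CPM (log2 difference -1.88 ± 0.30, edgeR adjusted p = 0.000225). H19, a growth-restraining non-coding RNA that was named after its value was seen, averaged 2.34 to 83.4 CPM in the control clones, with a log2 difference of -4.16 ± 0.78. Asb4 was at 1.76 to 2.05 CPM in BE_W34, at 1.71 to 3.92 CPM in BE_W60 and at 0 to 2.09 CPM in controls, so its libraries overlapped (log2 difference 1.57 ± 0.47, edgeR adjusted p = 0.027). Without BE_Co2 the same counts of 4 lower and 1 higher stood.

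Surface and matrix genes made up several of the other lists with 3 or more lower members, at shares of 10.3% to 25% against the background of 2.57%. These lists are described because of that count and were drawn up with earlier results of these data known. Shares above the background therefore follow in part from the choice and were not tested. Other lists of this kind had 0 to 2 lower calls: nectins 0 of 18 by edgeR (3 lower before adjustment, 0 by DESeq2), claudins 1 of 26, matrix proteases 2 of 39, integrins 1 of 16, and collagens and ephrins 1 of 14 each. These small counts moved with the libraries used: without BE_Co2 the claudins, collagens and ephrins had no lower call by edgeR and the integrins 2 of 16, and the collagens had 2 of 14 without AB_Co and 3 of 15 without the 2 deviating libraries. Among synaptic adhesion and leucine-rich proteins 3 of 12 were called lower, Lrfn1, Flrt1 and Elfn1, and all 3 were shared by both clones. Lrfn1, with 1 count in all 8 mutant libraries, passed the filter on low counts through the controls alone, which favours a lower call and adds to this share. Without BE_Co2 it was 2 of 10, since Lrfn1 no longer passed that filter. Flrt1 was at 1.01 to 1.27 CPM in BE_W34 and 0.916 to 3.14 CPM in BE_W60 against 3.84 to 49.4 CPM in controls. Its log2 difference was -3.43 ± 0.59, and -2.20 without BE_Co2. Elfn1 lay at 0.25 and 1.01 CPM in the mutant clones, next to 1.06 CPM in AB_Co and 7.15 to 35 CPM in the other controls. In the basement membrane list 4 of 22 were lower: Fras1, Nid2, Nid1 and Col4a2. Fras1, which anchors epithelium to its matrix, averaged 7.12 and 4.09 CPM in the mutant clones and 13.7 to 95.6 CPM in controls. The nidogens, which link laminin to collagen IV, were less even: Nid2 averaged 3.31 and 0.542 CPM in the mutants, 3.95 CPM in AB_Co and 251 CPM in BE_Co2, and the Nid1 clone means overlapped. Without BE_Co2, 4 of 21 members were called lower, but Col4a2 was no longer one of the genes tested.

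Matricellular proteins and proteoglycans gave 4 of 23 lower genes: Thbs3, Loxl3, Spp1 and Tnc. Loxl3, a collagen cross-linking oxidase, was at 1.03 to 1.84 CPM in BE_W34 and 0.286 to 0.734 CPM in BE_W60, against 2.13 to 7.74 CPM in controls. Spp1, osteopontin, averaged 233 and 166 CPM in the mutants but also 184 CPM in AB_Co, and 505 to 1810 CPM in the other controls. Its groups therefore overlapped (edgeR adjusted p = 0.0044). Complement, coagulation and lipoprotein genes gave 3 of 16, Clu, Pros1 and C1ra. Clu, the secreted chaperone clusterin, was at 9.35 to 15 CPM in all 8 mutant libraries and at 25.3 to 378 CPM in controls, with a log2 difference of -3.61 ± 0.56. Tetraspanins and mucins gave 4 of 24: Tspan8, Tspan15, Tspan18 and Muc1. Muc1 fell short of 2-fold without BE_Co2, at a log2 difference of -0.96. Tspan15 averaged 0.64 and 3.44 CPM in the mutants and 5.75 to 31.8 CPM in controls. Mesenchymal factors gave 4 of 16, Acta2, Twist2, Zeb1 and Cnn1, of which Acta2 was shared by both clones. Without BE_Co2 it was 2 of 15, and without the 2 deviating libraries 3 of 16 with none shared. Without AB_Co it was 4 of 15, with both mutant clones below the remaining controls for all 4. In that fit 13% of all tested genes lay below the remaining controls, so its counts of shared genes are not comparable with those of the main fit. Zeb1 averaged 80 CPM in BE_Co2, the clone with few epithelial markers, and 2.89 to 37.2 CPM in the other controls, but Acta2 was highest in BE_Co1 and Twist2 in AB_Co. Semaphorins and plexins fell from 4 of 25 to 2 of 23 without BE_Co2, and in neither fit was a called member shared by both clones. Without AB_Co 4 of 25 were lower, 2 of them shared. Cadherins and protocadherins lost all 3 lower calls without BE_Co2, leaving 0 of 28 by edgeR. Without AB_Co 3 of 28 were lower, 2 of them shared. With all controls 8 of 29 were lower at an unadjusted edgeR p under 0.05.

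**Figure D2:**
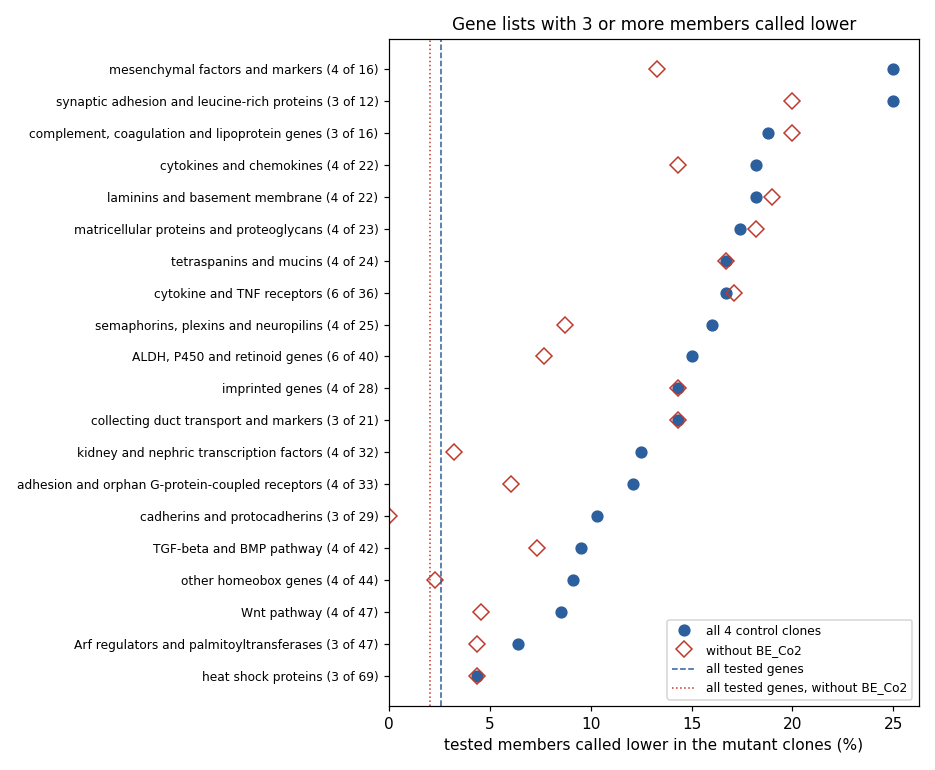
Share of tested members called lower in the mutants (x axis, %) for the 20 lists with 3 or more such members; blue circles use all 4 control clones, red diamonds leave out BE_Co2, and vertical lines give the shares over all tested genes. Imprinted genes stay at 4 of 28, while cadherins fall to 0 and kidney transcription factors from 4 of 32 to 1 of 31.

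Lists of immune receptors and ligands had shares called lower of 16.7% and 18.2%, beside 2.57% of all tested genes, with 1 lower gene shared by both clones in each. Without AB_Co, where shared means beyond the remaining controls, 5 of 34 receptors were lower, 3 of them shared, and 3 higher. Of 22 ligands 5 were then lower, 4 of them shared, and 3 higher. In that fit 3.1% of all tested genes were called lower and 1.34% higher. Both mutant clones lay below the remaining controls for 13% of all tested genes, so a rise in shared members without AB_Co is not particular to a list. Among growth factor lists EGF-family genes gave 0 lower and 1 higher of 20, IGF genes 0 of 9, FGF genes 1 lower of 12, and VEGF and PDGF genes 2 lower and 2 higher of 18 by edgeR. Without BE_Co2 the EGF list had 0 higher of 20, the FGF list 2 lower of 12 and the VEGF and PDGF list 0 lower and 2 higher of 17, and without AB_Co the EGF list had 2 higher of 20 and the FGF list 2 lower and 1 higher of 8. Of 36 cytokine and TNF receptors 6 were called lower and 1 higher, and without BE_Co2 the counts were 6 lower and 0 higher of 35, with Osmr no longer among the 6. Osmr, the oncostatin M receptor, was the shared lower member: 8.91 to 11.7 CPM in BE_W34, 15.3 to 20.9 CPM in BE_W60 and 11.5 to 41.2 CPM in controls, a log2 difference of -1.07 ± 0.20 that shrank to -0.86 without BE_Co2. Il1r1, the interleukin-1 receptor, averaged 24.7 and 12.3 CPM in the mutants, 18.2 CPM in AB_Co and 48.6 to 77 CPM in the other controls. Il6ra, the higher one, averaged 1.92 and 2.75 CPM against 0.672 to 1.86 CPM, and its log2 difference of 1.11 dropped to 0.93 without BE_Co2. Of 22 cytokines 4 were lower (Il7, Cxcl5, Tslp and Il11), with Il7 the shared one at 0.752 and 0.416 CPM against 0.779 to 1.85 CPM. Without BE_Co2, 3 of 21 were called lower, but Il11 lost its call (edgeR adjusted p = 0.0628) and Tslp was no longer tested. Adhesion and orphan receptors gave 4 of 33, or 2 of 33 without BE_Co2, and apart from Adgrg1 none was shared. Without AB_Co 6 of 31 were lower, 5 of them shared, and 1 higher. In the TGF-beta and BMP list 4 of 42 were lower, including Tgfb2 and Bmp3, and 1 was higher, Nog. Without BE_Co2 it was 3 of 41 lower, none of them shared by both clones. Without AB_Co it was 8 of 42 lower, 5 of them shared, and 2 higher. Wnt pathway genes gave 4 of 47, or 2 of 44 without BE_Co2. Without AB_Co 8 of 47 were lower, 5 of them shared, and 2 higher. Tcf7, a transcription factor that acts on Wnt signals, was lower in both clones: 2.25 to 3.22 CPM in BE_W34 and 3.89 to 7.35 CPM in BE_W60 against 6.27 to 10.8 CPM in controls.

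Lists of vesicle traffic had shares called lower of 0% to 6.38%, beside 2.57% of all tested genes. Rab6b, a Golgi Rab GTPase, was at 2.05 to 3.37 CPM in BE_W34 and 0.673 to 1.15 CPM in BE_W60, against 7.87 to 33.4 CPM in controls. No library overlapped, and the log2 difference was -3.19 ± 0.37, or -2.71 without BE_Co2 (edgeR adjusted p = 5.2e-06 and 1.4e-06). Rab20, the other called member of 43 Rab GTPases, fell short without BE_Co2 (log2 difference -0.42, edgeR adjusted p = 0.074). Myo5c, an unconventional myosin of secretory epithelia, had 9 counts in the mutants against 814 in controls and was the 1 called myosin of 24. Zdhhc14, a palmitoyltransferase, averaged 1.54 and 0.722 CPM in the mutants and 2.4 to 4.86 CPM in controls. Elmod1 and Iqsec2, regulators of Arf GTPases, were called without being shared: Elmod1 averaged 0.0642 CPM in AB_Co, below the 0.564 CPM of BE_W34, and Iqsec2 fell short of 2-fold without BE_Co2 at -0.99. Of the Golgi coats, golgins and tethers 0 of 41 were called by edgeR or DESeq2, with 5 each way at an unadjusted p under 0.05.

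In the ciliary lists the shares called lower ran from 0% to 5.56%, beside 2.57% of all tested genes. Dynein-2 itself gave 0 of 10 tested subunits by edgeR and by DESeq2, with 0 lower and 1 higher before adjustment (unadjusted p under 0.05), and log2 differences between -0.17 and 0.27. Intraflagellar transport and BBSome genes gave 0 of 36 by both tools, with 5 lower and 2 higher before adjustment. Of 33 transition zone and nephronophthisis genes Dcdc2a, a doublecortin protein of the ciliary axoneme, was called. It was at 1.98 to 3.03 CPM in BE_W34 and 0.172 to 0.386 CPM in BE_W60, and control libraries ran from 2.98 to 79 CPM, so BE_W34 touched the lowest control. Its log2 difference was -4.32 ± 0.77 (edgeR adjusted p = 0.00068) and -3.16 without BE_Co2. Of 18 Hedgehog pathway genes 1 was called lower and none higher by edgeR, with 3 lower and 2 higher before adjustment; DESeq2 called 2 lower and 1 higher. Their median log2 difference was 0.00.

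Among tubule, retinoid and chaperone lists the shares called lower ran from 4.35% to 15%, beside 2.57% of all tested genes, while glycolysis gave 1 of 39. Of 21 collecting duct transport genes 3 were lower, and without BE_Co2 also 3 of 21. Nr3c2, the mineralocorticoid receptor that mediates aldosterone, was the shared one, at 1.07 to 1.49 CPM in BE_W34 and 2.26 to 2.75 CPM in BE_W60 against 1.73 to 7.46 CPM in controls. Its log2 difference was -1.33 ± 0.23 (edgeR adjusted p = 0.00056). Car2, carbonic anhydrase II, averaged 6.71 CPM in BE_W34, above the 5.65 CPM of BE_Co2, and 1.08 CPM in BE_W60. Of 32 kidney transcription factors Ehf and Sox8 were lower in both clones. The list had 4 lower calls, and 1 of 31 without BE_Co2, which was Ehf. Ehf, an epithelial ETS factor, averaged 0.973 and 0.533 CPM in the mutants, beside 1.07 CPM in BE_Co2 and 2.47 to 17.1 CPM in the other controls. Irx1 was called higher at 19.2 and 8.25 CPM against 4.3 to 9.59 CPM. Of 40 aldehyde dehydrogenases, P450 and retinoid genes 6 were lower, or 3 of 39 without BE_Co2, and Dhrs3 was the shared one. Without AB_Co it was 5 of 38, with both mutant clones below the remaining controls for 4 of them, where 13% of all tested genes lay. Aldh1a2, which makes retinoic acid, was at 34.9 to 36.6 CPM in BE_W34, within the controls, and at 7.23 to 9.11 CPM in BE_W60. All 3 called heat shock genes of 69 were shared, and all 3 kept their call without BE_Co2. Hspb8, a small chaperone of selective autophagy, was at 3.58 to 4.23 CPM in BE_W34, 2.21 to 3.32 CPM in BE_W60 and 5.08 to 18.7 CPM in controls. Dnaja4 had 5 mutant and 347 control counts. The median log2 difference of the heat shock list was 0.06, with 8 members lower and 12 higher at an unadjusted edgeR p under 0.05.

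The higher genes were fewer, and 4 of them, 0.0333% of the genes tested, had every mutant library above every control, Rgs16, Pvrl1 and Gramd1b among them. Rgs16, which ends signalling by G-protein alpha subunits, was at 20.6, 24.9, 19.7 and 19.6 CPM in BE_W34 and at 20.9, 17.5, 23.8 and 13.5 CPM in BE_W60. Controls ran from 0 to 7.78 CPM with a median of 3.47 CPM, and BE_Co2 was the lowest. The log2 difference was 2.40 ± 0.53 (edgeR adjusted p = 0.0037), and 1.98 without BE_Co2. Rgs2, which acts on Gq, averaged 1.31 and 2.25 CPM against 0.263 to 1.09 CPM in the control clones. These were the 2 called members of 9 RGS genes, a share of 22.2% against 0.491% of all genes. Pvrl1, nectin-1, an adhesion molecule of adherens junctions, was at 6.45, 5.77, 7.65 and 4.97 CPM in BE_W34 and at 1.78, 2.26, 2.41 and 2.57 CPM in BE_W60. Controls reached 1.36 CPM at most (log2 difference 3.22 ± 0.48, edgeR adjusted p = 0.000102). Gramd1b, which carries sterol from the plasma membrane, was at 2.09 to 2.98 CPM and 4.07 to 5.27 CPM in the mutant clones and at 0 to 1.54 CPM in controls. Nog, the BMP antagonist noggin, averaged 7.13 and 3.28 CPM in the mutants and 0.488 to 2.42 CPM in controls. Prokr1, a prokineticin receptor, averaged 0.864 and 1.13 CPM against 0.122 to 0.57 CPM. Arxes1 averaged 1.1 and 1.18 CPM against 0.0124 to 0.767 CPM, but it has a near-identical neighbour, Arxes2, so its own count is uncertain. Rcn1 and Kcnh2 had large positive log2 differences of 2.98 and 3.03 that came from BE_W60 alone, at 20.4 and 23.4 CPM beside 0.892 and 1.33 CPM in BE_W34. With the clone as a block none of the higher genes was called; the adjusted p was 0.051 for Pvrl1 and 0.056 for Rgs16.

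**Figure D3:**
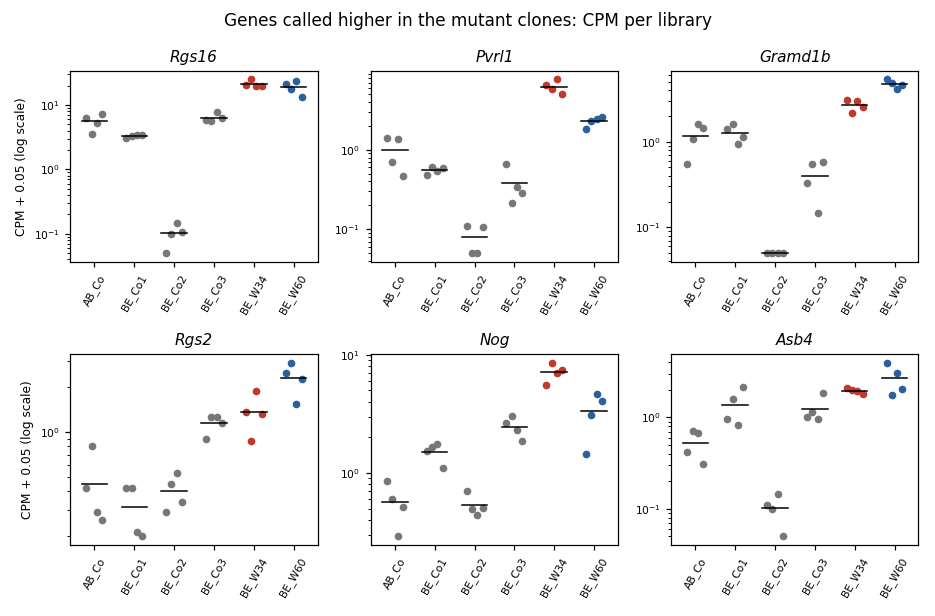
CPM per library, with 0.05 added, on a log axis for 6 genes called higher; each point is 1 library, bars are clone means, grey marks controls, red BE_W34 and blue BE_W60. Rgs16, Pvrl1 and Gramd1b show no overlap between mutant and control libraries, while BE_Co3 overlaps the mutants for Rgs2, and BE_Co1 and BE_Co3 for Nog and Asb4.

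Histone genes were the group with the most higher calls. Genes of the histone clusters are mainly transcribed in S phase, and most of their mRNAs end in a stem-loop instead of a poly(A) tail. Of 41 tested, 8 were called higher, or 19.5% against 0.491% of all genes, and 0 lower by edgeR or DESeq2; before adjustment 22 were higher and 0 lower at p under 0.05. The median log2 difference was 0.67, 38 of 41 were positive, and 15 had both mutant clones above all controls. Those 15 are 36.6%, against 6.92% of all genes. The summed level was 84.8 to 94.6 CPM in BE_W34 and 119.1 to 121.5 CPM in 3 BE_W60 libraries. Replicate 1 of BE_W60 lay at 73.4 CPM. The controls ran from 55.8 to 86.4 CPM, so that library and the 2 lowest of BE_W34, at 84.76 and 84.85 CPM, lay below the highest control library. The called genes were scarce: Hist1h2an averaged 2.13 and 2.66 CPM in the mutants against 0.492 to 1.34 CPM in controls, and was at 0.429 CPM in that BE_W60 library. Hist1h2bp averaged 1.09 and 1.74 CPM against 0.317 to 0.758 CPM, and Hist1h2bm 0.954 and 1.11 CPM against 0.28 to 0.662 CPM. The same count of 8 was called without BE_Co2 and without the 2 deviating libraries, beside 0.429% and 0.631% of all tested genes. Without AB_Co 3 of 41 were called higher, or 7.32% beside 1.34% of all tested genes. Histone genes share near-identical coding sequence and reads may have been split between copies or dropped. DNA replication genes, which also peak in S phase, gave 0 of 50 calls by edgeR and DESeq2, with 12 higher and 0 lower before adjustment, and mitosis genes gave 0 of 51 with 5 each way.

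The promoters of 2 of these genes are shown because both genes were called and lie in the same cluster. They are RefSeq sequences on GRCm38.p6, covering the transcription start, with CCAAT and TATAAA in capitals on either strand (ATTGG and TTTATA when read on the other).
Hist1h2an, chr13:21787199-21787498, minus strand: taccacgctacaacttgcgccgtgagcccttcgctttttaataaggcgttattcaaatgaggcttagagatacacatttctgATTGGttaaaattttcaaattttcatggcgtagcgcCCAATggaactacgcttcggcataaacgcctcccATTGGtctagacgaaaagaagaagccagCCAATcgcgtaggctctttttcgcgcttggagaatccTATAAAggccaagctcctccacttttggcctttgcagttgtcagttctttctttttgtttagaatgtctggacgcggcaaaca
Hist1h2bm, chr13:21721794-21722093, plus strand: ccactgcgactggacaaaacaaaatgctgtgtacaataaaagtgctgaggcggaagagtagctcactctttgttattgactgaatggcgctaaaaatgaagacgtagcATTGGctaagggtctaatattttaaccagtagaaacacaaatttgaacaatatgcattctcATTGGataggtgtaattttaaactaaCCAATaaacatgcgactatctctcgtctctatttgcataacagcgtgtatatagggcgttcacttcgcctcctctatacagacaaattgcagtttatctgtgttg
CCAAT was found in 7 of the 8 called histone promoters, in 33 of 37 tested histone promoters with a sequence, and in 39.5% of 9606 promoters of tested genes. TATAAA was in 3 of 8, in 19 of 37 and in 6.51%. The called histone genes thus carried these motifs about as their list did. Hist1h2an lies head to head with Hist1h2bp, whose window at chr13:21787238-21787537 overlaps most of these bases on the other strand.

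Most genes of the ribosomal protein, respiratory chain and proteasome lists had positive log2 differences, but few were called. Of 81 cytosolic ribosomal protein genes 2 were called higher, or 2.47% beside 0.491% of all genes, while 70 had a positive log2 difference and 27, or 33.3% beside 6.92%, had both mutant clone means above all controls. The median log2 difference was 0.24, and 0.24 with RLE size factors. The list summed to 20270 to 21910 CPM in BE_W34 and 18840 to 21410 CPM in BE_W60. Of the 16 control libraries 15 lay between 12720 and 18200 CPM, below every mutant library, and replicate 1 of AB_Co stood at 27940 CPM. Without that library and replicate 1 of BE_W60, 46 of the 81 were above all controls, against 9.27% of all genes. Of 74 oxidative phosphorylation subunits 1 was called higher, or 1.35% beside 0.491% of all genes, and 66 were positive with a median of 0.17. Both mutant clone means were above all controls for 12, or 16.2% beside 6.92% of all tested genes. That count was 31 without BE_Co2 and 20 without the 2 deviating libraries, beside 11.2% and 9.27% of all genes. Of 39 proteasome subunits 0 were called by edgeR or DESeq2, with 12 higher and 0 lower at an unadjusted edgeR p under 0.05. Of the 39, 31 were positive with a median of 0.12, and 10, or 25.6%, were above all controls. The median was 0.174 in BE_W34 and 0.0355 in BE_W60. Without BE_Co2, 26 of the 39 were positive. BE_Co2 was the lowest control clone for the ribosomal sum, and without it the ribosomal median fell to 0.13. Of the 81, 27 then lay above the 3 other controls and 5 below them, against 11.2% and 10.3% of all genes. Rpl34 and Rpl30, the called members, were low, at 1.59 to 6.36 CPM in the mutant clones, and both have processed copies in the genome that could take their reads. Rpl30 fell short of 2-fold without BE_Co2 at 0.95.

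**Figure D4:**
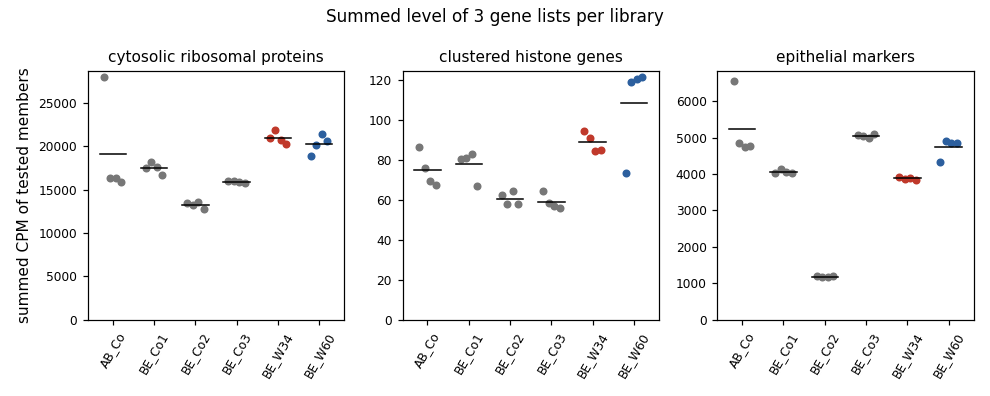
Summed CPM of the tested members of 3 lists in each library, from 0; points are libraries, bars clone means, grey controls, red BE_W34 and blue BE_W60. Replicate 1 of AB_Co is the high control for ribosomal proteins, replicate 1 of BE_W60 the low mutant for histones, and BE_Co2 is at 1160 to 1197 CPM for epithelial markers.

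Of the 76 lists, 16 had no called gene by edgeR. Besides those above, kinesins gave 0 of 28 (DESeq2 called 1 lower; before adjustment 5 lower and 0 higher), Hox genes 0 of 23 (1 higher by DESeq2; 5 lower and 4 higher), and p53 targets 0 of 35 (0 by DESeq2; 5 lower and 2 higher). Cholesterol and fatty acid synthesis gave 0 of 42 by both tools with 12 lower and 2 higher before adjustment, a median of -0.11 and 5 members below all controls, where 5.93% of all tested genes lay. In all, 115 of the 309 lower and 32 of the 59 higher genes were on a list, as were 2373 of the 12012 genes tested.

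The calls were spread over the chromosomes, although single clones carried shifts of whole chromosomes. The median log2 ratio to the control mean was 0.39 on chromosome 3 in BE_W34, and 0.30 on chromosome 5 and -0.39 on chromosome 6 in BE_W60. Controls had shifts of the same size: -0.44 on chromosome 1 in BE_Co2, 0.31 on chromosome 3 and -0.42 on chromosome 6 in AB_Co, and -0.36 on chromosome 3 in BE_Co3. The chromosome 3 shift of BE_W34 and the chromosome 5 and 6 shifts of BE_W60 were thus not common to the mutants. The share of genes called lower ran from 1.80% on chromosome 2 to 4.45% on chromosome 19, and 10 of the 59 higher genes were on chromosome 13, where 2.12% were called, with the histone cluster among them.

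**Figure D5:**
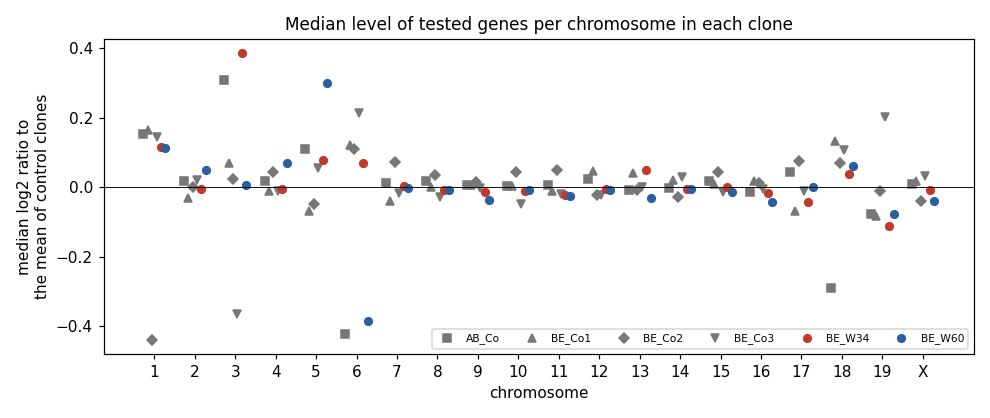
Median over tested genes of the log2 ratio of each clone's mean to the mean of the 4 control clones, by chromosome; grey marks the controls, red BE_W34 and blue BE_W60. The lowest median is -0.44 in the control BE_Co2 and -0.39 in the mutant BE_W60, and chromosome 3 is shifted in BE_W34 but not in BE_W60.

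The values in the ciliated libraries, taken from 3 mutant and 4 control clones, are given side by side only. The study's methods describe reduced serum for ciliated cells, whereas the labels give 10% serum for all libraries. Of the 3 mutant clones 2 carry edited Wdr34 and 1 carries edited Wdr60. The study made more than 1 Wdr34 allele, so at least 1 of the Wdr34 clones has no non-ciliated counterpart, and a gene had to lie beyond the controls in that clone as well. Of the 134 lower genes shared by both clones, 113 were measured there and 5 had all mutant clone means below all controls, or 4.42% against 0.962% of all genes; Myo5c and Zdhhc14 were among them. Of the 35 higher genes 21 were measured and 4, Pvrl1 among them, were above, or 19% against 0.987%. Pvrl1 averaged 0.679 to 4.11 CPM in ciliated mutant clones and 0 to 0.486 CPM in ciliated controls, and Zdhhc14 0.686 to 0.94 CPM and 1.46 to 3.31 CPM. By contrast Dhrs3 averaged 32.5 to 71.7 CPM in ciliated mutants within a control range of 16.3 to 117 CPM, and Rgs16 0.0139 to 1.3 CPM within 0 to 3.58 CPM. Other genes overlapped through the Wdr34 clone labelled WDR343 alone. Rab6b averaged 2.7 CPM in the clone WDR341, 1.72 CPM in WDR60 and 12.5 CPM in WDR343, against 12 to 28.4 CPM in controls. Panx1 averaged 0, 0.0547 and 1.51 CPM in the same order, against 1.45 to 3.98 CPM. How many genes did so was not counted.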

How the data were processed

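Messenger RNA of 24 non-ciliated libraries was analysed from the table of raw counts per gene that the authors deposited. Per the labels, libraries were made with a SMARTER kit. Per the study's methods they were read in pairs, aligned to GRCm38 with Rsubread and counted with featureCounts, and the submitters' notes name R 3.4.4 and DESeq2 1.18.1; the handling of strand and of reads with several matches is not given in the sources used here. Of 24421 genes, 12012 passed filterByExpr. They were fitted with edgeR 4.0.16 (trimmed mean of M values, quasi-likelihood F test, R 4.3.3) with genotype as the only term, adjusted by Benjamini-Hochberg over all 12012. A call needed an adjusted p under 0.05 and a log2 difference of at least 1. Levels are CPM from TMM-scaled library sizes; clone means for the separation of clones are means of log2 CPM with a prior count of 2. limma 3.58.1 with voomLmFit and the clone as a block, clone sums, DESeq2 1.42.0, other filters and thresholds, and fits without each replicate, clone or deviating library were alternatives; the fits without 2 deviating libraries and the list counts under other settings were added after seeing the data.

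The genes named were the edited genes, those called with the clone block, the 12 lower and 10 higher genes of largest gap between clone means, up to 4 called members of each list described, and the 3 largest log2 differences each way. The members and the 76 gene lists and 9 marker lists were chosen with earlier results of these data known. The counts of lists are descriptions and were not tested. Replicate numbers in the labels name no shared culture, and whether they pair libraries was checked by the correlation of deviations from clone means. The script was tested on simulated counts. RefSeq matched 11980 of the 12012 symbols. Counting intervals are exact at 95% and cover counting error only. Some items are not reported here.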

Additional observations from a re-analysis of the deposited data

Results flagged for a closer look

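In each group of 4 clone means or libraries, the gap of the most distant value was compared with the whole range of the group, and a share above the 95% critical value of Dixon's test was taken as standing apart. Of 115 such groups 6 did so, and chance gives about 1 in 20. Control clone means were compared as log2 CPM with 0.1 CPM added. BE_Co1 stood apart for Wdr60 at a share of 0.929, with 19.5 CPM against 24.6 to 25 CPM in the other control clones. BE_Co2 stood apart for Flrt1 at 0.84, with 45.3 CPM against 5.9 to 8.19 CPM. AB_Co stood apart for 3 genes called lower: Il11 at 0.963, with 0.522 CPM against 6.32 to 6.92 CPM, Tspan18 at 0.839, with 3.54 CPM against 25.8 to 37.5 CPM, and Tgfb2 at 0.83, with 2.96 CPM against 8.28 to 10.2 CPM. For these 3 genes AB_Co lay with or below a mutant clone. Among the library totals, those of BE_W34 had a share of 0.836.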

How the results depend on the processing

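Counts are given as lower and higher for both mutants against controls, then for BE_W34 and for BE_W60. DESeq2 called 513 and 106 genes, of which 220 and 61 were shared by both clones, and 459 and 505 lower genes in the single clones. Keeping every gene with 1 count in any library gave 126 higher genes, 220 and 75 shared, and 61 and 188 higher in the single clones; 10 counts in every library gave 135 and 16, 52 and 7 shared, 124 and 17, and 155 and 55. An adjusted p under 0.05 alone gave 948 and 855, 491 and 563 shared, 692 and 728, and 743 and 740. An adjusted p under 0.01 gave 175 and 30, 19 shared higher genes, 83 and 16, and 135 and 69. Without AB_Co there were 159 higher genes, 251 and 112 shared, 413 and 96, and 473 and 308; without BE_Co1 BE_W34 had 57 higher genes. Clone sums gave 0 in each direction and the clone block 9 and 0. Without BE_W34 there were 122 higher genes and without BE_W60 there were 34; whether both clones lie beyond the controls is not defined in those fits. Leaving out 1 replicate number at a time gave 143 to 287 lower and 17 to 70 higher genes, 101 to 155 and 13 to 52 shared, 62 to 158 and 13 to 32 in BE_W34, and 109 to 289 and 52 to 172 in BE_W60. Of 1867 values of named genes under these settings, 1365 kept direction and call, 499 lost the call and 3 reversed. The 3 were higher in the joint fit and, without BE_W60, came to -0.51 for Angptl2, -0.58 for Rcn1 and -0.18 for Kcnh2. The cause of these shifts was not tested.

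With the replicate number as a block, 272 lower and 52 higher genes were called, 133 and 32 of them shared, with 174 and 28 in BE_W34 and 217 and 97 in BE_W60. The numbers did not pair the libraries: deviations of same-numbered libraries correlated at -0.386 to 0.197 with a median of 0.0146 over 60 pairs, and 7 of 24 libraries correlated best with their own number.

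Low counts limit several named genes. The histone and Rpl calls rest on a few CPM, and folds of genes at or near 0 in the mutants depend on the prior count of the fit. Genes at or near 0 in the mutants, such as Lrfn1 and Pitx1, passed the filter on low counts through the controls alone. A lower call was thereby favoured for them, and they count in the shares of their lists.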
